A study of Mus musculus with 12 samples.

Results

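Genes of hepatic glucose output and glucose handling were followed in the mRNA of fasted mouse liver with and without inhibition of the microRNA miR-29. They are the gluconeogenic enzyme genes Pcx, Pck1, Fbp1 and G6pc, the hexose transporter gene Slc2a2, the glycolytic regulator gene Pfkfb1, the glycogen enzyme genes Pygl and Gys2, and the coactivator gene Ppargc1a. These members were taken by gene symbol alone, as 9 of the 21705 genes in the deposited table. Both groups were C57BL/6J female mice of 10 to 12 weeks whose livers were taken on day 7 after a tail vein injection, following an 18 h fast. The 6 control mice received saline, and the 6 treated mice received LNA29, a mixture of locked nucleic acids against miR-29a and against miR-29b/c at 20 mg/kg each. The 12 livers include no fed group and no control oligonucleotide, so that the effect of fasting cannot be read from these livers, and the effect of miR-29 inhibition and that of any injected oligonucleotide cannot be told apart.

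The liver makes glucose from lactate, alanine and glycerol when food is absent. Pyruvate carboxylase (Pcx) and phosphoenolpyruvate carboxykinase (Pck1) together bypass pyruvate kinase, fructose bisphosphatase (Fbp1) reverses phosphofructokinase, and the catalytic subunit of glucose-6-phosphatase (G6pc) releases free glucose. Glycogen phosphorylase (Pygl) supplies glucose units early in a fast, GLUT2 (Slc2a2) carries glucose across the hepatocyte membrane, and PGC-1alpha (Ppargc1a) is known as a coactivator that raises the transcription of Pck1 and G6pc.

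The mature sequences of the inhibited family are shown because one seed is shared by all its members, and with it the sites that could link the inhibitor to the genes described here. Sequences are from RefSeq (GRCm38.p6), and capitals mark the seed, bases 2 to 8. Mir29a lies at chr6:31062673-31062694 on the minus strand, Mir29c at chr1:195037600-195037621 on the plus strand, and miR-29b comes from both Mir29b-1 at chr6:31063025-31063047 (minus) and Mir29b-2 at chr1:195037091-195037113 (plus).
miR-29a-3p: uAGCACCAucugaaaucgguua
miR-29b-3p: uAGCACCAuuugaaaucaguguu
miR-29c-3p: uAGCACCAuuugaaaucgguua

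The reverse complement of that seed, TGGTGCT, was searched on the transcribed strand of 1 annotated 3′ UTR per gene, the longest one in GENCODE M21 (GRCm38). It occurred in G6pc, Slc2a2 and Ppargc1a, 3 of the 9 members, and in 1874 of the 12119 tested genes with an annotated 3′ UTR (15.5%). All 4 matches are in the last exon of their gene, and each is given with the bases around it and the heptamer in capitals, because these are the stretches that the inhibited family could pair with. In G6pc the match is at chr11:101377523-101377529 (plus strand, exon 5 of 5), and in Ppargc1a it is at chr5:51454865-51454871 (minus strand, exon 13 of 13). Slc2a2 has matches at chr3:28729771-28729777 and at chr3:28731301-28731307 (plus strand, exon 11 of 11).
G6pc: caactgtttgtTGGTGCTtttgtagggtt
Slc2a2, first match: cttggatggagTGGTGCTtcctccatagt
Slc2a2, second match: ttctgaatgatTGGTGCTgctgctgttta
Ppargc1a: ggtacccgaacTGGTGCTttagaaatgcg
None of the 4 is followed by A, the longer form TGGTGCTA that 399 of the 12119 genes hold (3.29%). The 3′ UTRs searched differed in length, with 3883 bases in Slc2a2, 3930 in Ppargc1a and 1104 in G6pc against 172 to 627 in the other members. A match is a description of the sequence and was not tested for binding.

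Depth was between 7696081 and 19062437 reads on genes per liver, and every value is a signal that the authors scaled to an upper quartile of 1000, so that 1 read was worth between 9.80 and 24.4. Known miR-29 targets of the extracellular matrix served as a check on the labels. Sparc had 2513 ± 238 with saline and rose to 7252 ± 1384 with LNA29 (SD, n = 6 each, log2 fold change 1.51, limma adjusted p = 4.6e-05) and Col3a1 rose from 222 ± 57.6 to 650 ± 253 (1.48, limma adjusted p = 0.0438), both without overlap of the groups. Col1a1 had 228 ± 80.4 and 392 ± 199 (0.70, limma adjusted p = 0.688, exact permutation test, p = 0.123) and did not pass. One library stood apart. Saline 49 had a summed signal of 33935473 over 9 hepatocyte marker genes against 78154468 to 117027116 in the other 11 livers, and 35.7% of its reads were albumin against 43.6% to 46.9%. Albumin belongs to these marker genes and made up most of the sum in saline 49, so the sum and the albumin share are not independent. Saline 49 also had the strongest trend with transcript length, described below, and values without it are given for the members and their ratios.

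In fasted livers that received LNA29, the mRNAs of the 4 gluconeogenic enzymes and of the other 5 members did not pass the test against saline livers, and the groups overlapped for each gene. Slc2a2 had the largest difference, with a mean 0.621 times that of saline livers, and it alone had an unadjusted limma p under 0.05. Pcx, Fbp1 and Pygl had means 0.818 to 0.880 times those of saline livers, and the other 5 had ratios between 1.01 and 1.15. By limma with Benjamini-Hochberg adjustment over the 12486 tested genes, 0 of the 9 members had an adjusted p under 0.05, where 0.16% of all tested genes did. At an unadjusted p under 0.05, 1 of 9 was lower in LNA29 livers (5.97% of all tested genes) and 0 of 9 were higher (1.95%). Groups without overlap were found for 0 of 9 members and 0.985% of all tested genes. All 9 members passed the filter on low values, a mean of at least 10. The median log2 fold change of all tested genes was -0.093, and 61.4% of them had a lower estimate in LNA29 livers, so that a small negative value was common in these data.

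**Figure D1:**
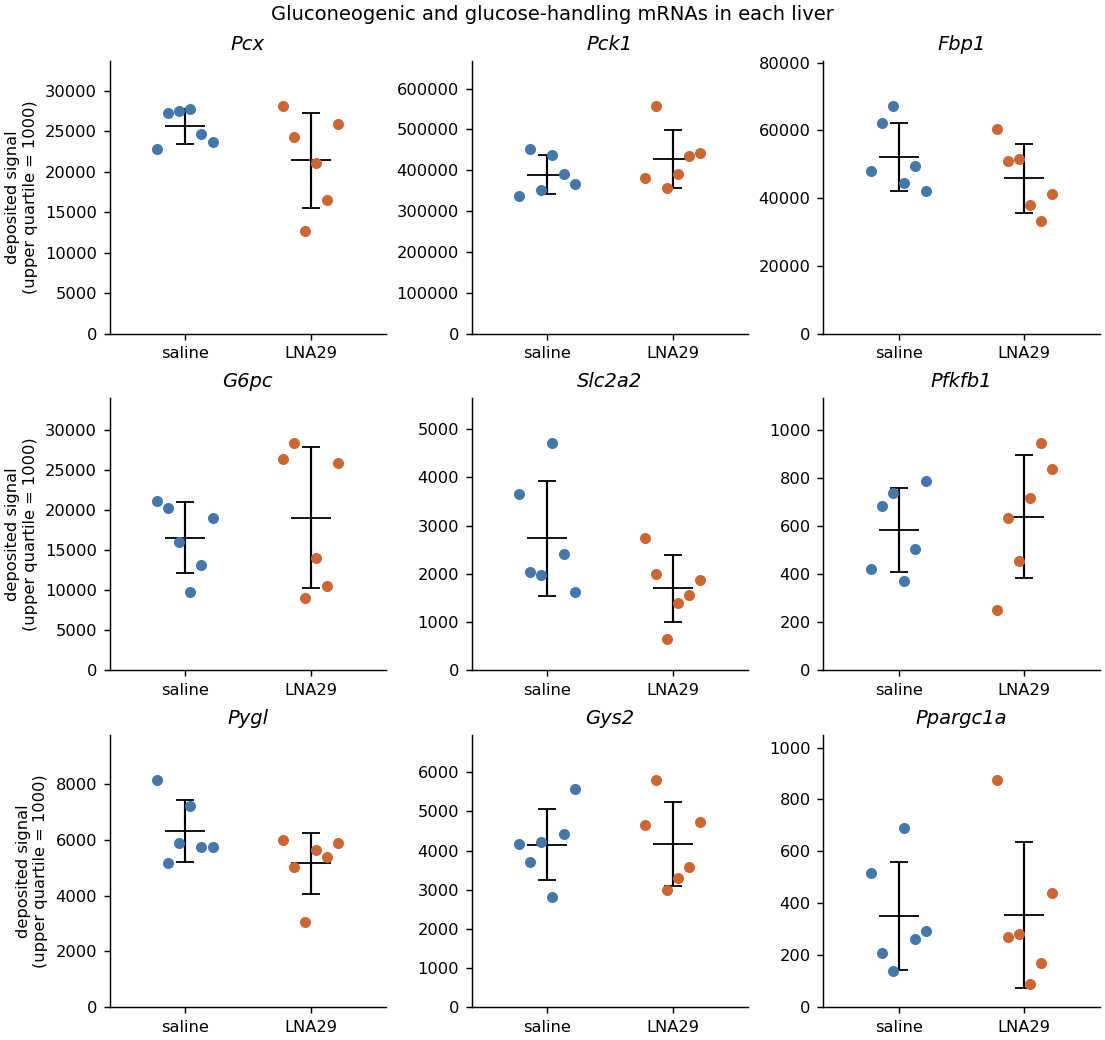
Deposited signal (scaled to an upper quartile of 1000, linear axis from 0) of each member in each liver, with saline livers in blue and LNA29 livers in orange. Black bars give the mean and SD of 6 livers. The groups overlap in all 9 panels, and Slc2a2 has its lowest value, 642, in an LNA29 liver and its highest, 4710, in a saline liver.

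Levels were first placed in order per kilobase of transcript in the 6 saline livers, since longer transcripts give more reads. Pck1 led with a signal of 146375 ± 17624 per kilobase (SD, n = 6), 4.15 times that of Fbp1 at 35280 ± 6803. G6pc (6863 ± 1837) and Pcx (6169 ± 525) followed, and their ranges overlapped. Pck1 mRNA thus stood far above every other member, and Fbp1 above the remaining enzymes, beyond the spread between livers. Pygl (2111 ± 376) and Gys2 (1562 ± 340) overlapped, as did Slc2a2 (492 ± 214) and Pfkfb1 (312 ± 93.0). Ppargc1a was lowest, at 54.4 ± 32.3 per kilobase, and its range did not reach that of Pfkfb1. In LNA29 livers the order was the same except that Pfkfb1 (341 ± 136) came before Slc2a2 (305 ± 125), 2 genes whose ranges overlapped in both groups. The range of Ppargc1a, 13.8 to 135 per kilobase, there overlapped those of Slc2a2 (from 115) and Pfkfb1 (from 134).

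Pcx, the mitochondrial enzyme that turns pyruvate into oxaloacetate, had a signal of 22781 to 27700 in saline livers (median 25946) and of 12679 to 28050 in LNA29 livers (median 22689). Saline livers lay close together, with a coefficient of variation of 8.51%, and LNA29 livers were spread over 27.5%, with LNA29 48, 50 and 52 below all saline livers and LNA29 44 above them. The means were 25591 ± 2178 and 21399 ± 5886 (SD, n = 6 each), and limma estimated a log2 fold change of -0.31 ± 0.18 (SE, adjusted p = 0.734). As a change in level, its 95% interval reached from -37.8% to 5.23%, and the intervals in percent that follow are given in the same way.

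Pck1, whose product converts oxaloacetate to phosphoenolpyruvate, had a signal of 337203 to 452984 in saline livers (median 378595) and of 355755 to 556244 in LNA29 livers (median 413424). It had the most reads of the members, 18855 to 43738 in a liver, and 5 of 6 LNA29 livers lay above the saline median. The highest value belonged to LNA29 46. With means of 389503 ± 46898 and 426846 ± 71411 (SD, n = 6 each), the log2 fold change by limma was 0.13 ± 0.25 (SE, adjusted p = 0.946), with a 95% interval from -24.3% to 57.0%. Counting error was small for this gene. An exact permutation test over its livers gave p = 0.316, against an unadjusted limma p of 0.623. The limma SE is drawn towards a trend over all genes. For Pck1 it is wider than the spread of these livers alone would give, and so is the interval.

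For Fbp1, the enzyme that removes a phosphate from fructose 1,6-bisphosphate, the signal was 42206 to 67070 in saline livers (median 48680) and 33151 to 60538 in LNA29 livers (median 46171). The groups overlapped over most of their range, with LNA29 50, 52 and 54 below all saline livers. By limma the means of 52179 ± 10061 and 45909 ± 10202 (SD, n = 6 each) differed by -0.19 ± 0.18 on the log2 scale (SE, adjusted p = 0.866), with a 95% interval from -0.58 to 0.19.

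G6pc, at the last step of glucose release, had a signal of 9820 to 21109 in saline livers (median 17543) and of 9075 to 28390 in LNA29 livers (median 20015). LNA29 44, 46 and 54 lay above all saline livers, at 25959 to 28390, LNA29 50 and 52 lay within the saline range, at 14071 and 10472, and LNA29 48 lay just below it. The means of 16568 ± 4434 and 19070 ± 8804 (SD, n = 6 each) differed by 0.11 ± 0.28 on the log2 scale (SE, limma adjusted p = 0.967), with a 95% interval from -29.0% to 63.0%. Leaving out saline 49 turned the estimate to -0.036, and leaving out LNA29 44, 46 or 54 also gave a negative value. The sign of the estimate thus rested on single livers for G6pc, one of the 3 members with a miR-29 seed match.

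Slc2a2, the gene of the transporter GLUT2 and the member with a pair of seed matches, had a signal of 1627 to 4710 in saline livers (median 2231) and of 642 to 2738 in LNA29 livers (median 1715). In total, 5 of the 6 LNA29 livers lay below the saline median, and LNA29 48, 50 and 52 lay below every saline liver. The means were 2740 ± 1193 and 1700 ± 697 (SD, n = 6 each) from 34 to 471 reads. On the log2 scale the difference was -0.71 ± 0.31 (SE, 95% interval from -60.9% to -4.54%), with an unadjusted limma p of 0.0324 and a limma adjusted p of 0.567, and the exact permutation test gave p = 0.0866. The Slc2a2 estimate was thus negative, whereas the known targets Sparc and Col3a1 rose with LNA29. A link between its seed matches and this difference was not tested. In bulk RNA a smaller share of hepatocytes and less of an mRNA in each of them cannot be told apart. Which livers are counted mattered for this gene. The difference was -0.53 without saline 49 (limma adjusted p = 0.718), -0.45 without LNA29 48 (limma adjusted p = 0.669) and -0.28 without both (limma adjusted p = 0.690), and in these 3 fits Slc2a2 also lost its unadjusted p under 0.05, as it did without saline 43 or LNA29 50.

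Slc2a2 is a long transcript, and its signal varied with a trend with transcript length across the genes of a liver. Whether this trend came from the library or from the tissue was not tested. In each liver the deviation of each gene from its mean over all livers was correlated, across 12141 genes, with the length of the gene's transcript (Spearman's rho), which gave 0.497 in saline 49, 0.276 in saline 43, 0.257 in LNA29 44, and between -0.295 and 0.057 in the other 9 livers. The same 3 livers held the 3 highest values of Slc2a2, of Ppargc1a and of Pygl. With 5569 bases Slc2a2 was longer than 84.0% of tested genes and Ppargc1a, with 6464 bases, longer than 89.4%, against a median of 3080, whereas Pygl had 2992 bases. When the length trend of each liver entered the fit as a covariate, chosen after the data were seen, the difference of Slc2a2 was -0.67 ± 0.17 (SE, limma adjusted p = 0.0674), and that of Ppargc1a was -0.087 (limma adjusted p = 0.949). With this covariate Pygl had -0.29 (limma adjusted p = 0.374), and the adjusted limma p of the other 6 members was between 0.467 and 0.995. Without saline 49, the liver with the strongest trend, limma gave log2 fold changes of -0.28 for Pcx, 0.16 for Pck1, -0.24 for Fbp1, -0.057 for Pfkfb1, -0.27 for Pygl and -0.11 for Gys2.

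**Figure D2:**
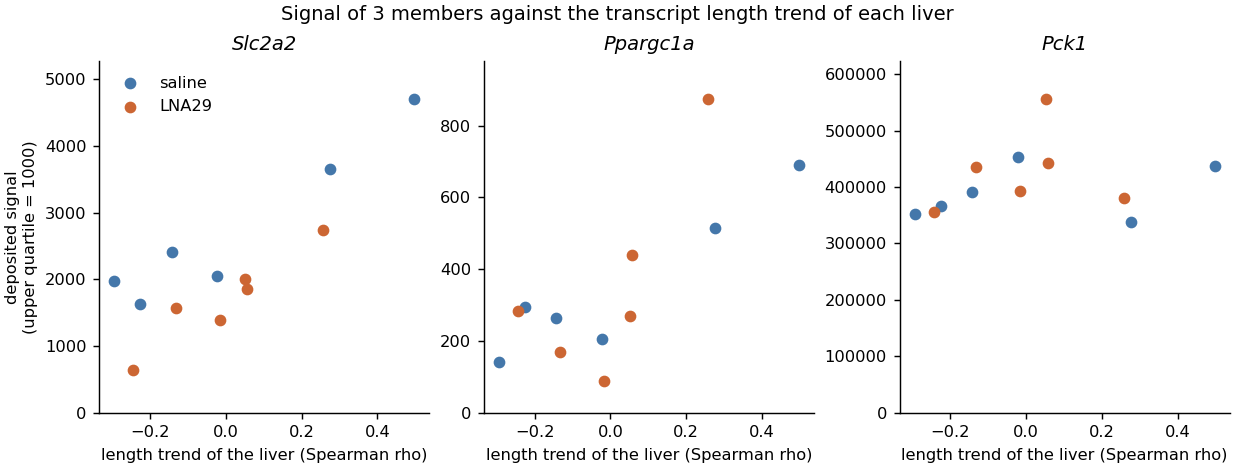
Deposited signal of Slc2a2, Ppargc1a and Pck1 (linear axes from 0) against the length trend of each liver, the Spearman rho across genes between a liver's deviations and transcript length, with saline livers in blue and LNA29 livers in orange. The 3 livers with a trend of at least 0.257 have the 3 highest values of Slc2a2 and Ppargc1a and none of the 3 highest of Pck1.

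Pfkfb1 encodes the liver form of the bifunctional enzyme that sets fructose 2,6-bisphosphate, an activator of glycolysis and inhibitor of Fbp1. It had a signal of 370 to 784 in saline livers (median 594) and of 250 to 943 in LNA29 livers (median 674), from 20 to 80 reads. LNA29 livers covered the whole saline range and extended it at both ends. The means of 583 ± 174 and 638 ± 254 (SD, n = 6 each) differed by 0.063 ± 0.30 on the log2 scale (SE, limma adjusted p = 0.979), and the difference was below 0 without saline 43, saline 49, LNA29 52 or LNA29 54, the lowest of these values being -0.074.

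Pygl, the liver glycogen phosphorylase, had a signal of 5175 to 8156 in saline livers (median 5811) and of 3038 to 6013 in LNA29 livers (median 5511). LNA29 48 had the lowest value, far below the other 5 LNA29 livers, which lay between 5024 and 6013, in or just under the lower part of the saline range. The means of 6317 ± 1126 and 5164 ± 1100 (SD, n = 6 each) differed by -0.31 ± 0.17 on the log2 scale (SE, limma adjusted p = 0.720), which was -0.16 without LNA29 48. Saline 43 and saline 49, 2 of the livers with the strongest length trend, had the highest values.

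Gys2, the liver glycogen synthase that Pygl opposes, was nearly equal in both groups, with means of 4151 ± 902 and 4176 ± 1073 (SD, n = 6 each). The signal was 2820 to 5569 in saline livers (median 4191) and 3000 to 5805 in LNA29 livers (median 4114). The groups covered almost the same range. The difference was -0.00078 ± 0.18 on the log2 scale (SE, limma adjusted p = 0.999), its 95% interval reached from -23.6% to 30.7%, and its sign changed with the liver left out.

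Ppargc1a had a signal of 140 to 690 in saline livers (median 278) and of 89.3 to 875 in LNA29 livers (median 276), from 5 to 70 reads. It was the most variable member, with a coefficient of variation of 59.5% in saline and 79.4% in LNA29 livers, and its highest values were in LNA29 44, saline 49 and saline 43. The means of 352 ± 209 and 354 ± 281 (SD, n = 6 each) were alike. On the log2 scale the difference was -0.14 ± 0.47 (SE, limma adjusted p = 0.974) with a 95% interval from -54.5% to 80.8%. At this depth and spread a wide range of changes is thus compatible with the values. The difference turned positive without saline 43 (0.011), saline 49 (0.095) or LNA29 50 (0.18).

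Across the members, LNA29 48 was the lowest liver of its group for 6 of 9 and the lowest of all 12 livers for 4, namely Pcx, G6pc, Slc2a2 and Pygl. LNA29 44 was the highest of its group for 5, and saline 49 was the lowest of its group for 3 and the highest for 3. The summed signal of 9 pericentral marker genes was also lowest in LNA29 48, at 365812, against 510071 to 872122 in the other LNA29 livers. Gluconeogenesis is known mainly from periportal hepatocytes, and the 9 periportal markers had summed signals of 215075 to 391475 in saline livers and 259162 to 773199 in LNA29 livers. Among these 9, Hsd17b13 was higher in LNA29 livers without overlap (log2 fold change 0.79) and Cyp2f2 lower (-0.48), at an unadjusted limma p under 0.05, and in the pericentral list Cyp2c29 was lower (-0.41). The median log2 fold change was 0.15 over the periportal and -0.34 over the pericentral list, and the part of such markers in the members' values was not tested.

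Markers of the other cell types that liver tissue could hold were summed as well. Summed signals of 7 endothelial markers were 7870 to 8990 in saline and 6415 to 7875 in LNA29 livers, those of 8 stellate markers 4491 to 5190 and 4074 to 5878, those of 7 macrophage markers 7484 to 11343 and 6571 to 15740, and those of 7 bile duct markers 605 to 907 and 441 to 1189. Blood markers, 4 of which were in the table, had 36508 to 154145 in saline and 37281 to 171276 in LNA29 livers, and the adipocyte and muscle list had 6 to 879 and 6 to 908. The adipocyte gene Adipoq had at most 3 reads in any liver. In the hepatocyte list 0 of 9 genes had an unadjusted limma p under 0.05, in the stellate list Hgf was lower and in the macrophage list Marco was higher. Marco was the only 1 of 7 macrophage genes with a positive estimate, and the median of that list was -0.19. The endothelial list had 6 of 7 negative estimates (median -0.26) and the stellate list 6 of 8 (-0.14), beside 61.4% of all tested genes. Positive estimates numbered 5 of 9 in the hepatocyte and 4 of 6 in the bile duct list.

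**Figure D3:**
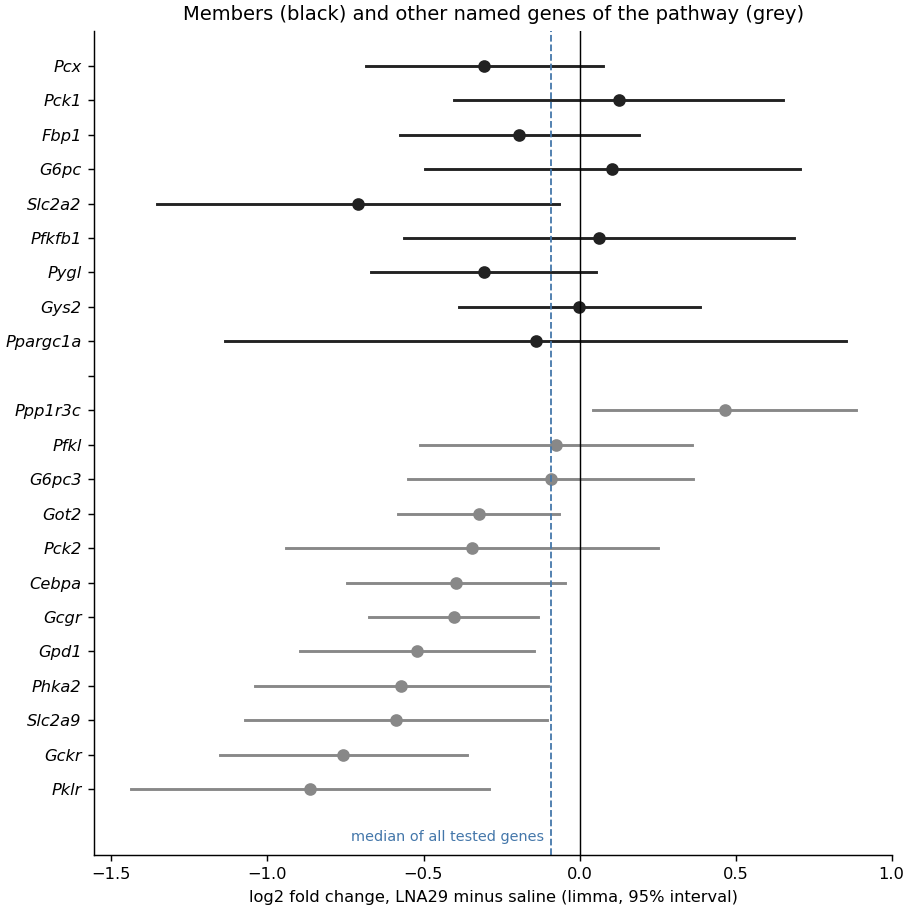
Log2 fold change of LNA29 against saline livers from limma with its 95% interval, for the 9 members (black) and for other named genes of the pathway lists (grey). The dashed line is the median of all tested genes, -0.093, and among the members the interval of Slc2a2 is the one that does not include 0.

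Glucose output depends on the balance of opposed reactions, so the members were also set against the gene of the reverse step within each liver, which does not depend on how a library was scaled. Pck1 against Pklr, the liver pyruvate kinase gene, had a log2 ratio of 6.08 to 7.36 in saline livers (median 6.83) and of 6.86 to 8.77 in LNA29 livers (median 7.78). All 6 LNA29 livers lay above the saline median and 4 of them above every saline liver. The mean log2 ratios were 6.80 ± 0.48 and 7.79 ± 0.70 (SD, n = 6 each), a difference of 0.99 (standard error 0.35) with p = 0.0195 by a two-sided exact permutation test and 0.0779 after Benjamini-Hochberg adjustment over the 4 ratios that were computed. It did not pass the adjusted threshold, the difference was 0.99 without saline 49 (exact permutation test, p = 0.0346), and without saline 49 and LNA29 48 together it was 0.79 (exact permutation test, p = 0.0635). Most of the difference came from the denominator, as Pklr had 3573 ± 942 in saline and 2083 ± 881 in LNA29 livers (log2 fold change -0.87, limma adjusted p = 0.305). Pklr alone gave the same p of 0.0195 by the exact permutation test, before any adjustment.

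Fbp1 against Pfkl, the liver phosphofructokinase gene, had mean log2 ratios of 5.12 ± 0.34 and 5.01 ± 0.48 (SD, n = 6 each, difference -0.12, exact permutation test, p = 0.615). Pygl against Gys2 had 0.62 ± 0.47 and 0.31 ± 0.36 (difference -0.31, exact permutation test, p = 0.229). Without saline 49 the differences were -0.022 for Fbp1 over Pfkl and -0.16 for Pygl over Gys2 (exact permutation tests, p = 0.933 and 0.461). In both ratios the groups overlapped, and after adjustment over the 4 ratios the p-values of the exact permutation tests were 0.615 and 0.459.

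**Figure D4:**
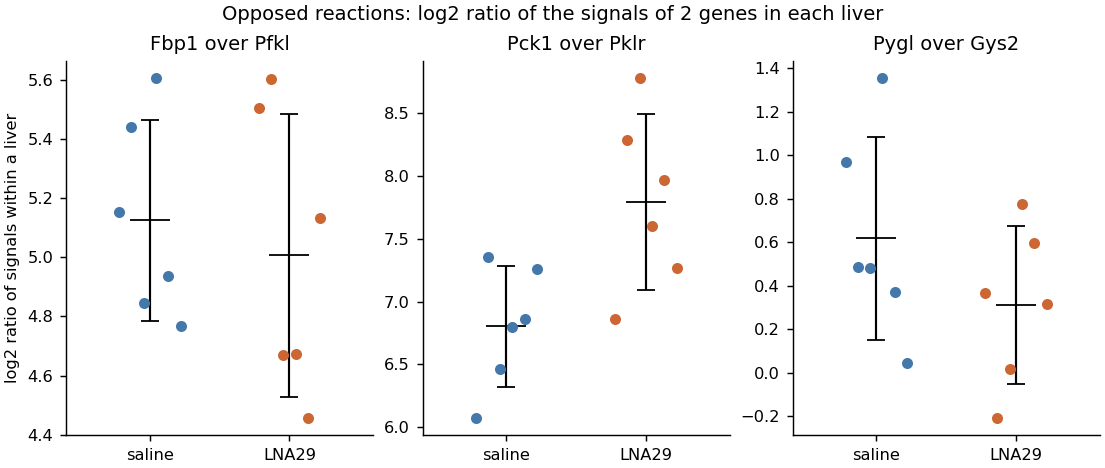
Log2 ratio of the signals of 2 genes in each liver (axes do not start at 0), with saline livers in blue, LNA29 livers in orange and black bars for the mean and SD of 6 livers. For Pck1 over Pklr all 6 LNA29 livers lie above the saline median of 6.83. For the other ratios the groups overlap, with 3 LNA29 livers below all saline livers for Fbp1 over Pfkl and 2 for Pygl over Gys2.

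Ppargc1a was compared with its known target genes over the 12 livers on the log2 scale. With Pck1 it had a Pearson's r of -0.028 and a Spearman's rho of -0.098 (permutation tests, p = 0.930 and 0.765), and r was 0.11 within saline and -0.070 within LNA29 livers. This r depended on how the libraries were scaled, and was -0.45 (permutation test, p = 0.138) after the livers had been brought to one common median. With G6pc it had an r of 0.27 and a rho of 0.28 (permutation tests, p = 0.396 and 0.378), and r was -0.37 within saline and 0.56 within LNA29 livers, 0.53 over all livers but saline 49, and 0.12 with a common median. Pck1 and G6pc had an r of 0.27 and a rho of 0.23 (permutation tests, p = 0.399 and 0.470), with -0.41 within saline and 0.55 within LNA29 livers. None of the 3 relations passed, with adjusted permutation p-values for r of 0.930, 0.599 and 0.599. Without the 2 livers farthest from the median of the first gene, r was 0.0037, 0.040 and 0.090.

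When each value was centred on its group mean, some members varied together over the 12 livers. Pygl and Slc2a2 had an r of 0.86, Gys2 and G6pc of 0.80, and Pcx and G6pc of 0.71, while Ppargc1a and Pfkfb1 had -0.73. These are descriptions, and the points share the depth of their libraries and the length trend of their livers. Among 8990 genes with a mean of at least 100, those closest to Pck1 were Gpr107 (0.95), Rrp1b (0.92) and Fam73b (0.88). Those closest to G6pc were Slc25a22 (0.94), Pon1 (0.90) and Cyp2e1 (0.88), and those closest to Ppargc1a were Bptf (0.96), Il17ra (0.96) and Clip1 (0.94).

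None of the near relatives of the members passed the test. Pck2, the mitochondrial carboxykinase gene, had 204 ± 31.4 in saline and 167 ± 61.4 in LNA29 livers (SD, n = 6 each, log2 fold change -0.35). G6pc3, the ubiquitous glucose-6-phosphatase gene, had 404 ± 83.8 and 378 ± 84.9 (-0.093). Pygb had 97.9 ± 40.4 and 97.0 ± 29.7 (0.018), and Gys1 had 107 ± 44.7 and 95.3 ± 37.4 (-0.10), so that the brain phosphorylase and muscle synthase genes rested on at most 16 reads in a liver. Fbp2, the muscle isoform, had at most 2 reads in any liver and is given no fold.

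Around the members, 107 further genes of these pathways were all in the table and 104 were tested. By limma 0 of 104 had an adjusted p under 0.05 and 0 were free of overlap. At an unadjusted p under 0.05, 8 were lower (7.69%, against 5.97% of all tested genes) and 1 was higher (0.962%, against 1.95%). Their median log2 fold change was -0.107, beside -0.093 over all tested genes, and 62 of 104 were negative. Counts by list were also small. No gene of the 3 tested gluconeogenic enzymes other than members, of the 10 reversible glycolytic steps or of the 11 other fasting and glucocorticoid responsive genes passed the unadjusted threshold.

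Glycolysis and pyruvate oxidation held 2 of the 8 lower genes among 21 tested. Gckr, a regulatory protein of hepatic glucose phosphorylation, had 2540 to 4281 in saline livers (median 3292) and 1439 to 2906 in LNA29 livers (median 1882). All 6 LNA29 livers were below the saline median, although the groups overlapped. It had the smallest adjusted p of these lists (log2 fold change -0.76, standard error 0.19, limma adjusted p = 0.157, exact permutation test, p = 0.00649). Pklr, described above, was the other, and the list had a median of -0.28 over its 21 tested genes.

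In the list of entry routes for lactate, alanine and glycerol, 2 of 16 were lower. Gpd1, which joins glycerol to the pathway, had 40145 ± 4261 and 28712 ± 7392 (SD, n = 6 each, log2 fold change -0.52, limma adjusted p = 0.387), and Got2, of the malate and aspartate shuttle, had 13403 ± 1649 and 10662 ± 733 (-0.32, limma adjusted p = 0.473). All 6 LNA29 livers were below the saline median for both. Of 21 regulators of gluconeogenic transcription, 2 were lower. Gcgr, the glucagon receptor gene, had 9079 to 13848 in saline livers and 8125 to 10151 in LNA29 livers (log2 fold change -0.40, limma adjusted p = 0.315, exact permutation test, p = 0.00433). Cebpa, a transcription factor of hepatocyte metabolism, had a log2 fold change of -0.40 (limma adjusted p = 0.539). Got2 and Cebpa were chosen after their values were seen.

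Among 18 glycogen genes, Phka2, a regulatory subunit of liver phosphorylase kinase, had 417 ± 87.1 and 283 ± 76.4 (SD, n = 6 each, log2 fold change -0.57, limma adjusted p = 0.487). In the same list Ppp1r3c, which brings a phosphatase to glycogen, was the 1 gene with a higher value, 829 ± 200 and 1161 ± 379 (0.46, limma adjusted p = 0.567), with all 6 LNA29 livers above the saline median and a single high liver in each group, 1222 in saline 45 and 1925 in LNA29 44. Of 5 tested hexose transporters besides Slc2a2, Slc2a9, a transporter best known for urate, had 610 ± 160 and 407 ± 110 (-0.59, limma adjusted p = 0.487). In the list of other fasting and glucocorticoid responsive genes 9 of 11 had a positive estimate and the median was 0.26. Of all tested genes 61.4% had a lower estimate, and their median was -0.093. In this list 0 of 11 genes had an unadjusted limma p under 0.05. Its genes Igfbp1 and Tat, named after their values were seen, had log2 fold changes of 0.74 and 0.53 (unadjusted limma p-values of 0.172 and 0.117).

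The clock genes Dbp and Nr1d1 lie outside these lists and were chosen after their values were seen, so they do not stand for clock genes in general. Dbp, a clock output gene, had a signal of 52.5 to 358 in saline livers, from 3 to 23 reads, and of 15.3 to 41.1 in LNA29 livers, from 1 to 2 reads, without overlap (limma adjusted p = 0.0468). Nr1d1, a clock repressor gene, had 2399 to 6965 and 1056 to 4436, with overlap (log2 fold change -1.33, limma adjusted p = 0.139). Per1, in the fasting list, had 0.018 (limma adjusted p = 0.991). The part of the clock in the members' values was not tested.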

How the data were processed

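Polyadenylated liver RNA from 6 saline and 6 LNA29 mice was sequenced as single reads. Per the submitters' processing notes and the paper, the authors mapped reads with MapSplice2, estimated them per gene with RSEM (build mm9, version not given in the sources used here) and deposited a signal per gene and liver, scaled to an upper quartile of 1000, with genes without reads set to 1. The authors also deposited group means, a signed fold change (a score) and a p-value, and 3 unnamed columns of values, which were not used. Between 92.2% and 93.9% of values were whole multiples of 1 read (within 0.02), so depth is known. Reads quoted here are values divided by the worth of 1 read. The share of whole multiples was held too low for count tests, which were not run. Limma intervals hold biological and technical spread together, and they also borrow variance from other genes through the mean-variance trend. The labels do not state litters or cages.

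Groups were compared on log2(value + 1) by limma 3.58.1 in R 4.3.3, using a mean-variance trend, two-sided, over 12486 genes with a mean of at least 10, Benjamini-Hochberg adjustment and a threshold of 0.05. For low genes a fold change on this scale can depart from the ratio of the means in either direction, since livers without reads are set to 1. Pfkfb4, for example, had means of 19.2 in saline and 19.5 in LNA29 livers but a log2 fold change of -1.10. Exact permutation tests used all 924 divisions of the livers, and correlations over 12 livers used 100000 permutations. The limma script was tested on simulated data. Python 3.11.15, scipy 1.17.1 and numpy 2.4.6 were used otherwise. Named were all members, their relatives and ratio partners, Sparc, Col1a1 and Col3a1, and in each of 8 pathway lists the gene with the smallest p in each direction if its unadjusted p was under 0.05. Genes named outside this rule were chosen after their values were seen. Besides these, 9 marker lists were summed. Members and lists were chosen with earlier results of these data known. Of 4 ratios of opposed reactions, 1 is not reported here. Alternatives are given in the closing section. Sites were located on GRCm38, not on the authors' build, and no coordinate was converted.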

Additional observations from a re-analysis of the deposited data

Results flagged for a closer look

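In 3 of 56 groups of 6 livers looked at, a single liver lay farther from its group than the Dixon criterion allows, where chance alone gives about 2.8, or 1 in 20. Pygl in LNA29 48 had a log2 value of 11.57, a signal of 3038 against 5024 to 6013 in the other LNA29 livers. Ppp1r3c had a log2 value of 10.26 in saline 45, the highest of its group, and of 10.91 in LNA29 44, again the highest of its group.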

How the results depend on the processing

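No member reached an adjusted p under 0.05 under any alternative that was run, and the smallest was 0.0674, for Slc2a2 with the length trend as covariate. The 2 planned count models were not run, because too few values were whole multiples of a read. No paired analysis was possible because the groups share no replicate numbers in the labels. Depth limits Ppargc1a and Pfkfb1 most, with 5 to 70 and 20 to 80 reads in a liver.

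Of all alternatives compared with the main results, 358 were labelled the same, 28 changed direction, 20 were weaker and 15 were stronger. For an effect, the same means that direction and side of the threshold were kept. For a count of genes it means within 1.5-fold of the main count. Genes with an adjusted limma p under 0.05, 20 as reported, numbered 10 after a shift to a common median, 58 with array weights, 217 without values beyond 1.5 SD, 124 with the length covariate and 44 without saline 49 and LNA29 48 together. Members with an unadjusted limma p under 0.05 numbered 0 with array weights, 0 without values beyond 1.5 SD, 2 with the covariate (Slc2a2 and Pygl) and 0 without both livers. Other pathway genes higher at that threshold numbered 6, 4, 3 and 5 in the same order. Estimates changed sign for Gys2 (0.045 with a common median, 0.060 with TMM scaling), G6pc (-0.036 without values beyond 1.5 SD), Ppargc1a (0.088 without both livers) and Fbp1 over Pfkl (0.046 without both livers). Pck1 over Pklr was 0.79 without both livers (exact permutation test, p = 0.0635). The length covariate and the removal of both livers were chosen after seeing the data. The cause of these changes was not tested.

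When each liver was left out in turn, called genes numbered 1 (without saline 43, LNA29 50 or LNA29 54) to 29 (without LNA29 48), with 3 without saline 51, 7 without saline 53, 9 without LNA29 46, 10 without LNA29 52 and 11 without saline 47. Members with an unadjusted limma p under 0.05 numbered 0 to 2, with 0 without saline 43, saline 49, LNA29 48 or LNA29 50 and 2 without LNA29 44, when Pcx joined Slc2a2. Other pathway genes numbered 6 to 10 lower and 0 to 5 higher. Log2 fold changes were 0.046 to 0.17 for Pck1, -0.039 to 0.29 for G6pc, -0.28 to -0.11 for Fbp1, -0.39 to -0.16 for Pcx, -0.074 to 0.31 for Pfkfb1, -0.87 to -0.45 for Slc2a2 (unadjusted limma p under 0.05 in 8 of 12), -0.47 to 0.18 for Ppargc1a, -0.11 to 0.090 for Gys2 and -0.36 to -0.16 for Pygl. Log2 ratios differed by -0.24 to -0.0081 (Fbp1 over Pfkl), 0.79 to 1.18 (Pck1 over Pklr, exact permutation p of 0.00866 to 0.0411) and -0.42 to -0.16 (Pygl over Gys2). Correlations were -0.15 to 0.095 for Ppargc1a with Pck1, 0.095 to 0.53 for Ppargc1a with G6pc and -0.047 to 0.39 for Pck1 with G6pc, the last negative only without LNA29 46. With a common median the 3 were -0.45, 0.12 and 0.20.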
